A study of Mus musculus with 22 samples.

Results

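The mitochondrial ribosomal protein genes are the nuclear genes whose products, once imported, form the protein part of the ribosome inside mitochondria. They were taken by symbol, as every gene named Mrpl or Mrps followed by a number and at most 1 letter in both deposited tables that reached 1 FPKM in 2 or more columns of the first table. FPKM are fragments counted per length of transcript and per size of library. The symbols matched 78 of 24819 genes, and all 78 passed the expression requirement. The lowest value of any of them among the 12 libraries of the first table was 5.34 FPKM, for Mrpl19, so no gene lay near the requirement of 1 FPKM. By the products' present assignment, 51 belong to the large subunit, 26 to the small subunit, and 1, Mrps36, is not a ribosomal protein at all but a part of the 2-oxoglutarate dehydrogenase complex. The 51 include Mrps18a and Mrps30, whose products sit in the large subunit despite their names. Of the 78, 46 have a counterpart in bacterial ribosomes and 31 are found only in mitochondrial ones.

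RNA came from E14 cells, a mouse embryonic stem cell line grown on gelatin with leukemia inhibitory factor, at 3 days after siRNA transfection with DharmaFECT. The 22 libraries fall into 3 sets. Set 1 holds 2 libraries each of siRpl14 (given with siNT), siRpl11 (given with siNT), siRpl14+siRpl11 and siNT (siNT given with siNT). Set 2, in the same table, holds single libraries of siRpl14, siRpl14+siDux, siDux and siNT. Set 3, in the other table, holds 2 libraries each of siRpl14, siRpl14+siDux, siDux and siNT, and 1 each of siRpl11 and siRpl14+siRpl11. The control siRNA is thus in every library that received a single knockdown. The labels do not spell out NT, sets 1 and 2 are told apart only by the form of their titles, and nothing says that replicates were separate cultures. The p-values therefore measure only the spread between these libraries, which may be technical.

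Mitochondria make a small set of respiratory chain subunits on their own ribosomes, whose RNAs are encoded in mitochondrial DNA and whose proteins are all encoded in the nucleus, translated by the cytosolic ribosome and imported. The mitochondrial ribosome descends from a bacterial one, and it gained many proteins that bacteria lack. The products of Rpl14 and Rpl11 sit in the cytosolic large subunit, so the knockdowns remove parts of the machine that makes the mitochondrial ribosomal proteins, and the measurements here are of their mRNAs. Dux encodes a transcription factor of the early embryo that turns on the 2C-like program.

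The promoters of the family carry letters that are also known as binding motifs of NRF1, of ETS factors such as the mitochondrial regulator GABP, and of YY1. Promoters reaching from 250 bases before to 50 bases after the annotated start (RefSeq, GRCm38.p6, a later build than the mm9 of the deposited values) were found for 69 of the 78 genes. The NRF1 motif, the capitals in the windows of Mrpl9 and Mrpl32 below, stood in 3 of the 69 (4.35%), against 1.07% of 27025 genes. CCGGAAGT (ETS) stood in 12 (17.4%), against 4.31% of all genes. AAGATGGCG (YY1) stood in 8 (11.6%), against 1.64% of all genes. Both strands were searched, and 22 of the 69 (31.9%) held at least 1 of the 3 motifs. This compares with 6.76% of all genes and 16 of the 58 cytosolic ribosomal protein promoters found (27.6%). The median share of G and C was 58.4% in the family's promoters, 57.4% in the cytosolic ones and 52.4% in those of all genes. The motif shares are not matched for it. A start with a C and then 4 pyrimidines, the mark of mRNAs with a terminal oligopyrimidine tract, stood in 0 of the 69 at the annotated position, against 24.1% of the 58 cytosolic ribosomal protein promoters and 3.01% of all genes. The 30-base windows shown here all belong to genes that rose in at least 1 set 1 comparison with siNT. Matches also stood in genes that were not called, such as Mrpl3, Mrpl27 and Mrps27, whose windows are not shown. Windows run 5′ to 3′ on the gene's strand, with the motif or its reverse complement in capitals.
Mrpl9, NRF1, chr3:94443298-94443327, plus strand: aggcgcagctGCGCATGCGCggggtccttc
Mrpl32, NRF1, chr13:14613105-14613134, minus strand: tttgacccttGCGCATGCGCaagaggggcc
Mrps18c, ETS, chr5:100798591-100798620, plus strand: cgggtcacgtgACTTCCGGcccgggaagcg
Mrpl52, ETS, chr14:54426899-54426928, plus strand: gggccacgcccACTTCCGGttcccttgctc
Mrpl51, ETS, chr6:125192099-125192128, plus strand: caggggctaaaCCGGAAGTatttgactgga
Mrpl33, ETS, chr5:31613937-31613966, plus strand: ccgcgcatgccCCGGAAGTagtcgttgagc
Mrpl35, YY1, chr6:71823742-71823771, minus strand: ggcaggctgcAAGATGGCGgcttccatctt
Mrps18a, YY1, chr17:46111005-46111034, plus strand: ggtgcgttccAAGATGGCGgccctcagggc
Mrpl42, YY1, chr10:95501903-95501932, minus strand: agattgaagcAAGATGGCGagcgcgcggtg
Mrps11, YY1, chr7:78783013-78783042, plus strand: ctacgggcgcCGCCATCTTtctgtcttccc
In Mrpl35, Mrps18a and Mrpl42 the YY1 letters begin 23, 11 and 27 bases into the first exon, while in Mrps11 they stand before the start and on the other strand.

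Mrpl52, whose rises held without any 1 library, and Mrps17, a gene that fell with siRpl11, are shown with the 100 bases before their starts, neither of which touches an annotated exon and neither of which holds any of the 3 motifs.
Mrpl52, chr14:54426809-54426908, plus strand: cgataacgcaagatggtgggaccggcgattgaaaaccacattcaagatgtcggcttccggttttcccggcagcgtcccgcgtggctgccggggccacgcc
Mrps17, chr5:129715397-129715496, plus strand: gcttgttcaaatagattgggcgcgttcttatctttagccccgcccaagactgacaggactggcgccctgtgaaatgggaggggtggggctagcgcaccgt
Of the 38 genes of the family that rose in at least 1 set 1 comparison with siNT, 34 had a promoter in the table and 14 of these (41.2%) held at least 1 motif, against 8 of 35 (22.9%) among the other 40. The corresponding counts for YY1 alone were 6 of 34 (17.6%) against 2 of 35 (5.71%). These shares describe letters in a window, and no difference between them was tested.

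The genes also lie close to others. In GENCODE vM21 (GRCm38), 19 of the 78 (24.4%) start within 1000 bases of a protein-coding gene on the opposite strand and pointing away from it, against 7.21% of 21924 protein-coding genes. Mrps18c pairs in this way with Helq, Mrpl51 with Ncapd2 and Mrps18b with Ppp1r10. Another protein-coding gene overlaps 26 of the 78 (33.3%), against 21.5% of all, among them Mrpl24 with Rrnad1, Mrpl47 with Actl6a and Ndufb5, Mrps6 with Slc5a3, and Mrps34 with Mapk8ip3 and Nme3. The library kit keeps strand, but the strand setting used in counting is not given in the sources used here. Whether reads of these genes were kept apart from those of their overlapping partners is therefore not known.

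The files hold FPKM and no depth. Of all genes, 30.1 to 32.1% per library had a value of 0 in the first table, and 50.5 to 56.2% in the table of set 3. Rpl14 stood at 27.1 to 60.2% of the siNT mean in the siRpl14 libraries of set 1 and Rpl11 at 15.2 to 34.9% in the siRpl11 libraries, with siRpl14 replicate 1 the least depleted. In the siRpl14+siRpl11 libraries of set 1, Rpl14 stood at 15.6 and 35.3% and Rpl11 at 13.2 and 33.4%. With siRpl14, Rpl14 stood at 34.6% of siNT in set 2 and at 26.8 and 24.6% of the siNT mean in set 3. Summed over 10 pluripotency genes, the markers of the cells' identity, set 1 had 5611 to 6160 FPKM with siRpl14, 7017 to 7362 with siRpl11, 6224 to 6354 with both and 8158 to 9065 with siNT. The 10 did not move together with siRpl14 or siRpl11. In both, Sox2 and Utf1 stood above siNT, while Dppa5a, Klf4, Esrrb, Nanog, Tdgf1 and Zfp42 stood below. Pou5f1 stood below siNT with siRpl14 and above it with siRpl11. Summed over 8 genes of the 2C-like state the values were 114 to 116 FPKM with siRpl14, 24.7 to 25.7 with siRpl11, 29.9 to 32.4 with both and 33.7 to 36.2 with siNT. The 10 fibroblast feeder markers summed to 7.43 to 11.5 FPKM with siRpl14 and 6.34 to 7.66 with siRpl11. They summed to 6.21 to 7.82 with both and 20.7 to 21.5 with siNT. Of the 10, 3, Postn, Lum and Dcn, were at 0 in all 8 libraries. Below 1 FPKM in both libraries of a group were 8 with siRpl14, 9 with siRpl11, 9 with the pair and 7 with siNT. Summed over 9 trophectoderm markers, the values were 50.6 to 77.5 FPKM with siRpl14 and 28.8 to 32.4 with siRpl11. They were 26.6 to 27.0 with both and 35.8 to 40.4 with siNT. Elf5 was at 0 in both siRpl11 libraries and in both that received the pair. Of the 9, 5 were below 1 FPKM in both siNT libraries and 5 in both siRpl11 libraries. With siRpl11, log2 differences from siNT were -1.07 for Krt8, -0.82 for Krt18, -0.36 for Eomes and -0.09 for Krt7. Gata3 was at 0.51 and Tfap2c at 0.02. These 4 sums thus moved with the knockdowns that are compared here, and their part in the results below was not tested. The 8 primitive endoderm markers summed to 8.57 to 11.8 FPKM with siRpl14, 6.76 to 9.41 with siRpl11, 6.49 to 9.97 with both and 8.13 to 8.65 with siNT, with overlap in each case. In these bulk samples fewer cells of a type and less RNA per cell cannot be told apart.

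Levels within the family spanned a wide range. The highest means over the 8 libraries of set 1 were 206 FPKM for Mrpl42, 199 for Mrpl52, 131 for Mrpl34, 119.8 for Mrpl18 and 112 for Mrps16. The lowest were 7.36 FPKM for Mrpl41, 7.76 for Mrpl48, 7.83 for Mrpl19, 9.65 for Mrps25 and 11.8 for Mrpl1. The median over the 78 was 48.1 FPKM, against 1911 FPKM over 77 cytosolic ribosomal protein genes, whose lowest mean was 44.5 and highest 6258 FPKM. The typical gene for a mitochondrial ribosomal protein was thus far below the typical one for a cytosolic one, on this scale that already divides by transcript length. Levels of the 78 in sets 1 and 2, which share a table, correlated at r = 0.99 and rho = 0.97 across genes, as a description of 78 genes that are not independent replicates.

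Knockdown of Rpl14, of Rpl11 or of both was accompanied in set 1 by higher mRNA levels of a good part of the family. With siRpl14, 22 of the 78 rose and 0 fell (limma, adjusted p under 0.05), and 34 had an unadjusted p under 0.05. Over all 12129 genes tested, 18.1% rose and 13.4% fell, so the share of risers in the family (28.2%) was above the background and the share of fallers below it. The median log2 fold change of the 78, on the scale of log2(FPKM + 1), was 0.18 (quartiles 0.02 and 0.37), against 0.03 over all genes, and 61 of the 78 lay above 0. In 44 of the 78 both siRpl14 libraries were above both siNT libraries and in 7 both were below, against 38.2% and 32.9% of all genes. The number of calls rests on single libraries. Leaving out siNT replicate 1 left 2 risers, leaving out siNT replicate 2 left 6 and leaving out siRpl14 replicate 2 left 2, while leaving out siRpl14 replicate 1 left 17, with 2 genes lower. The median stayed between 0.18 and 0.20 whichever library was left out, and under quantile normalization it was 0.09, with 16 higher and 1 lower.

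With siRpl11, 35 rose and 4 fell (limma), against 16.0% and 28.4% of all genes, and 45 had an unadjusted p under 0.05. The median was 0.24 (quartiles 0.06 and 0.50), against -0.11 over all genes, and 60 of the 78 lay above 0. The family thus stood on the other side of 0 from the bulk of genes, though the median of all genes was 0.01 under quantile normalization and 0.03 after median-ratio rescaling. Both siRpl11 libraries were above both siNT libraries for 55 of the 78 and below for 11, against 31.2% and 46.2% of all genes. Here 14 rose and 0 fell without siNT replicate 1, 22 rose and 1 fell without siNT replicate 2, and 9 rose and 0 fell without siRpl11 replicate 2, while the median stayed between 0.21 and 0.31. After median-ratio rescaling 48 rose and 1 fell, with a median of 0.41.

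With siRpl14+siRpl11, 28 rose and 3 fell (limma), against 16.6% and 25.0% of all genes, and 43 had an unadjusted p under 0.05. The median was 0.24 (quartiles 0.04 and 0.45), against -0.07 over all genes, and 63 of the 78 lay above 0. Both libraries of the pair of siRNAs were above both siNT libraries for 52 and below for 10, against 33.7% and 43.3% of all genes. Without siNT replicate 1 the count was 5 higher and 0 lower, without siNT replicate 2 it was 15 and 0, without siRpl14+siRpl11 replicate 1 it was 6 and 0, and without siRpl14+siRpl11 replicate 2 it was 25 and 5. The median lay between 0.21 and 0.24 whichever library was left out, and after median-ratio rescaling it was 0.35, with 43 higher and 2 lower. All 3 comparisons use the same pair of siNT libraries, so their likeness is not independent evidence, and each is given by its own values.

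**Figure D1:**
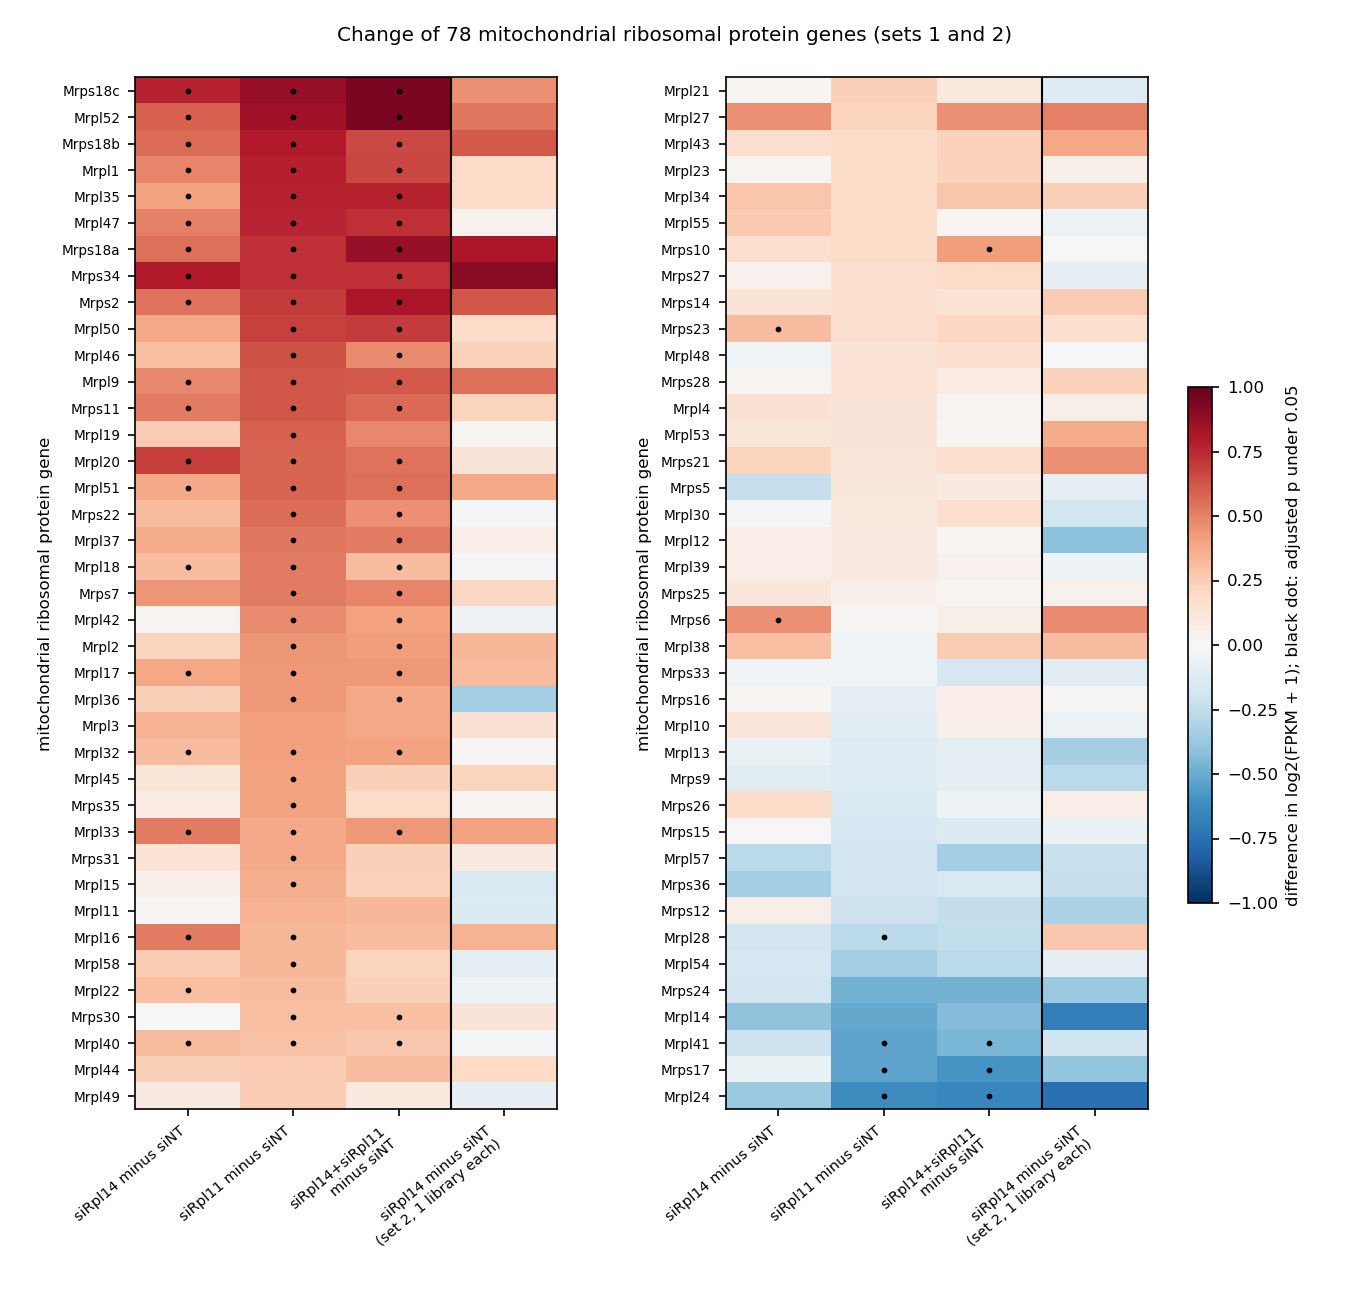
Difference in log2(FPKM + 1) of each of the 78 mitochondrial ribosomal protein genes, as colour, for siRpl14, siRpl11 and siRpl14+siRpl11 minus siNT in set 1 (n = 2 each) and for siRpl14 minus siNT in set 2 (1 library each). Genes run from the highest to the lowest siRpl11 difference, black dots mark limma adjusted p under 0.05 (22 genes with siRpl14, 39 with siRpl11 and 31 with both), and the dots on blue are the 4 fallers with siRpl11 and the 3 with both.

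The cytosolic ribosomal protein genes had few calls against siNT. With siRpl14, 0 of 77 rose and 2 fell (limma), against 18.1% and 13.4% of all genes, with a median of -0.19, and under quantile normalization 11 rose and 4 fell with a median of -0.00. An unadjusted p under 0.05 was reached by 11. Both siRpl14 libraries were above both siNT libraries for 2 and below for 21, against 38.2% and 32.9% of all genes. Leaving out siRpl14 replicate 2 or siNT replicate 1 left 0 fallers, leaving out siNT replicate 2 gave 6, and leaving out siRpl14 replicate 1 gave 8. With siRpl11, 6 rose and 1 fell, against 16.0% and 28.4% of all genes, and 16 rose and 3 fell under quantile normalization. Both siRpl11 libraries were above both siNT libraries for 23 of the 77 and below for 5, against 31.2% and 46.2% of all genes. The median of 0.12 was above the -0.11 of all genes, as was that of the 78, but was -0.05 without siNT replicate 2, where 1 rose and 2 fell, while 16 rose and 0 fell without siNT replicate 1, and leaving out any other library gave 0 to 4 risers. With both, 3 rose and 3 fell, against 16.6% and 25.0% of all genes, with a median of 0.03, which was -0.12 without siNT replicate 2, while 12 rose and 0 fell without siNT replicate 1 and 0 rose and 0 fell without siRpl14+siRpl11 replicate 1. The mitochondrial family kept a median above 0 in each of these settings. With both siRNAs, 19 of the 77 lay wholly above the siNT libraries and 8 wholly below, against 33.7% and 43.3% of all genes. No test of the difference between the families was made. Taken per 100 FPKM of cytosolic ribosomal protein mRNA, the 78 genes came to 2.96 and 3.26 FPKM with siRpl14, 2.64 and 2.84 with siRpl11, 2.93 and 2.73 with both, and 2.21 and 2.73 with siNT. On this measure both siRpl14 libraries were above both siNT libraries of set 1, while the other knockdowns overlapped or touched siNT replicate 2. In set 2 the siNT library stood at 2.98, above siRpl14 replicate 1 of set 1, and the siRpl14 library at 3.19. The separation with siRpl14 thus rests on the 2 siNT libraries of set 1. As a share of all FPKM the family made up 0.790 and 0.814% with siRpl14 and 0.783 and 0.817% with siRpl11. It made up 0.831 and 0.787% with both, and 0.654 and 0.691% with siNT. Every knockdown library of set 1 was above both siNT libraries of that set. In set 2 the share was 0.818% with siRpl14 and 0.752% with siNT.

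**Figure D2:**
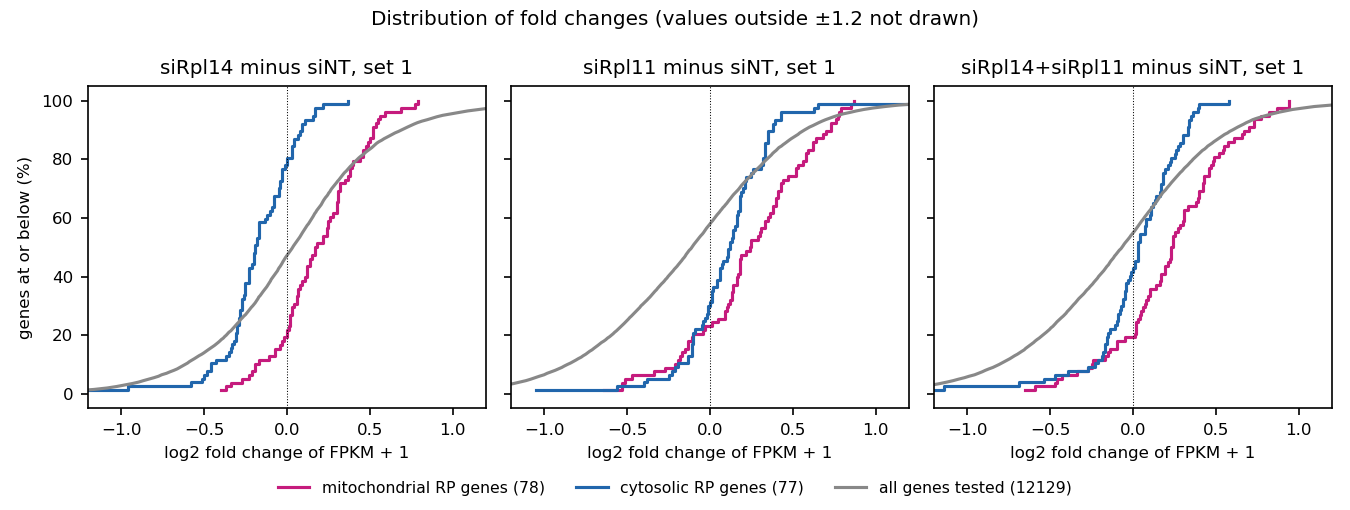
Cumulative share of genes (percent, vertical axis) at or below each log2 fold change of FPKM + 1 (horizontal axis) for the 78 mitochondrial ribosomal protein genes, 77 cytosolic ones and all 12129 genes tested, in the 3 knockdowns of set 1 minus siNT. The mitochondrial curve lies to the right of the cytosolic one at its middle in each panel (medians 0.18, 0.24 and 0.24 against -0.19, 0.12 and 0.03, of which the cytosolic -0.19 became -0.00 under quantile normalization and the 0.12 and 0.03 became negative without siNT replicate 2).

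Both subunits were represented among the risers. Of all genes, 18.1% rose and 13.4% fell with siRpl14, 16.0% and 28.4% with siRpl11, and 16.6% and 25.0% with both. Of the 51 large-subunit genes, 15 rose and 0 fell with siRpl14 (median 0.24), 26 rose and 3 fell with siRpl11 (median 0.31), and 20 rose and 2 fell with both (median 0.28). Of the 26 small-subunit genes, 7 rose and 0 fell with siRpl14 (median 0.14), 9 rose and 1 fell with siRpl11 (median 0.15), and 8 rose and 1 fell with both (median 0.15). Of the 46 genes with a bacterial counterpart, 15 rose with siRpl14, 19 with siRpl11 and 16 with both. Of the 31 genes specific to mitochondria, 7 rose with siRpl14, 16 with siRpl11 and 12 with both. These are counts of the calls above, which rest on single libraries as given there. The groups differ in size, and neither split was tested.

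Among large-subunit genes, Mrpl52, which encodes a protein bacteria lack, rose in every comparison with siNT. It had 198 and 188 FPKM with siRpl14, 233 and 228 with siRpl11, 258 and 233 with siRpl14+siRpl11, and 134 and 121 with siNT. No knockdown library overlapped siNT. Its log2 fold changes were 0.59 ± 0.10 with siRpl14 (SE; limma, adjusted p = 0.00667), 0.85 ± 0.10 with siRpl11 (limma, adjusted p = 0.00241) and 0.94 ± 0.10 with both (limma, adjusted p = 0.00264), and all 3 calls held whichever library was left out. Mrpl35, the counterpart of bacterial L35, had 22.7 and 23.7 FPKM with siRpl14, 31.8 and 29.0 with siRpl11, 31.1 and 29.3 with both, and 17.4 and 17.3 with siNT. The groups with siRpl11 stood highest and siNT lowest, with no overlap between siRpl14 and either. The rises were 0.40 ± 0.10 with siRpl14 (limma, adjusted p = 0.022), 0.77 ± 0.10 with siRpl11 (limma, adjusted p = 0.00266) and 0.77 ± 0.10 with both (limma, adjusted p = 0.00305).

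Mrpl47, the counterpart of L29 at the exit of the peptide tunnel, had 54.4 and 53.7 FPKM with siRpl14, 62.8 and 66.6 with siRpl11, 69.3 and 58.0 with both, and 39.1 and 36.6 with siNT. It rose by 0.50 ± 0.11 with siRpl14 (limma, adjusted p = 0.0144), 0.76 ± 0.11 with siRpl11 (limma, adjusted p = 0.00321) and 0.73 ± 0.11 with both (limma, adjusted p = 0.00411). For Mrpl35 and Mrpl47 the calls with siRpl11 and with both siRNAs held without any 1 library, while those with siRpl14 were lost without siNT replicate 1, siNT replicate 2 or siRpl14 replicate 2. Mrpl47 overlaps Actl6a and Ndufb5. Mrpl1, whose bacterial counterpart forms the stalk beside the site where tRNA leaves, is a low gene, with 11.5 and 11.6 FPKM with siRpl14, 13.3 and 15.4 with siRpl11, 12.8 and 13.7 with both, and 7.21 and 8.68 with siNT. No knockdown library overlapped siNT, and its rise with siRpl11 was 0.78 ± 0.13 (limma, adjusted p = 0.00428), a call kept without any 1 library.

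Mrpl20, the counterpart of a protein that binds bacterial ribosomal RNA early in assembly, had 77.0 and 75.7 FPKM with siRpl14, 64.2 and 77.7 with siRpl11, 72.6 and 65.3 with both, and 43.5 and 50.8 with siNT. Its rise with siRpl14 was 0.69 ± 0.13 (limma, adjusted p = 0.00851), lost without siNT replicate 1 or siRpl14 replicate 2, and its rises with siRpl11 (0.58 ± 0.13) and both (0.54 ± 0.13) were both lost without siNT replicate 1. The rise with siRpl11 was also lost without siRpl11 replicate 2, and the rise with both without siRpl14+siRpl11 replicate 1. Mrpl51, a mitochondria-specific protein gene with an ETS match, had 83.6 and 95.6 FPKM with siRpl14, 104.1 and 101 with siRpl11, 105.9 and 95.3 with both, and 67.5 and 69.3 with siNT. It rose by 0.58 ± 0.10 with siRpl11 (limma, adjusted p = 0.0056), a call kept without any 1 library, and every knockdown library was above both siNT libraries. Mrpl33 rose by 0.52 ± 0.10 with siRpl14 (limma, adjusted p = 0.00937) and Mrpl50 by 0.70 ± 0.17 with both siRNAs (limma, adjusted p = 0.016). Each of these last 2 calls was lost without siNT replicate 1, and without siRpl14 replicate 2 for Mrpl33 or siRpl14+siRpl11 replicate 1 for Mrpl50.

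The 3 genes of the Mrps18 family encode related proteins that descend from bacterial S18, of which Mrps18c and Mrps18b belong to the small subunit and Mrps18a to the large. All 3 rose in each of the 3 comparisons. Mrps18c had 79.4 and 83.8 FPKM with siRpl14, 87.2 and 88.3 with siRpl11, 99.4 and 84.6 with both, and 45.7 and 49.2 with siNT. The rises were 0.77 ± 0.11 with siRpl14 (limma, adjusted p = 0.0036), 0.87 ± 0.11 with siRpl11 (limma, adjusted p = 0.00248) and 0.94 ± 0.11 with both (limma, adjusted p = 0.00266), and no single library decided any of these calls. Mrps18b had 73.9 and 79.8 FPKM with siRpl14, 83.6 and 97.7 with siRpl11, 91.9 and 74.1 with both, and 47.6 and 56.3 with siNT. Mrps18a had 51.7 and 64.6 FPKM with siRpl14, 58.9 and 72.5 with siRpl11, 79.1 and 66.2 with both, and 37.3 and 40.9 with siNT. For both genes the lowest knockdown library was above the highest siNT library. With siRpl11 the rises were 0.79 ± 0.14 for Mrps18b (limma, adjusted p = 0.00552), kept without any 1 library, and 0.73 ± 0.16 for Mrps18a (limma, adjusted p = 0.00888), lost without siNT replicate 1 or siRpl11 replicate 2. With siRpl14 they were 0.56 ± 0.14 for Mrps18b (limma, adjusted p = 0.0231) and 0.55 ± 0.16 for Mrps18a (limma, adjusted p = 0.0309), both lost without siNT replicate 1, siNT replicate 2 or siRpl14 replicate 2.

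Mrps34, a mitochondria-specific small-subunit protein gene known for its role in stability of the small subunit, had 38.3 and 43.6 FPKM with siRpl14, 35.3 and 43.2 with siRpl11, 39.1 and 38.9 with both, and 20.7 and 26.0 with siNT. Its rise with siRpl14, 0.79 ± 0.15 (limma, adjusted p = 0.00834), was the highest of the family in that comparison, and it was lost without siNT replicate 1 or siRpl14 replicate 2. It overlaps Mapk8ip3 and Nme3 on the genome, and whether reads in the overlap were kept apart from theirs is not known. Mrps2, the counterpart of bacterial S2, had 44.7 and 55.0 FPKM with siRpl14, 49.7 and 61.5 with siRpl11, 67.9 and 53.5 with both, and 31.6 and 36.1 with siNT. Its rise with both siRNAs was 0.82 ± 0.17 (limma, adjusted p = 0.00882), and its rise with siRpl14, 0.54 ± 0.17 (limma, adjusted p = 0.0417), missed the threshold with no filter, at adjusted p = 0.0648 (limma), and also after median-ratio rescaling, with plain empirical Bayes and with a replicate block (adjusted p = 0.0542, limma). Leaving out siNT replicate 1, siNT replicate 2 or siRpl14 replicate 2 lost it too, and without siNT replicate 1 or siRpl14+siRpl11 replicate 1 so was the rise with both siRNAs.

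**Figure D3:**
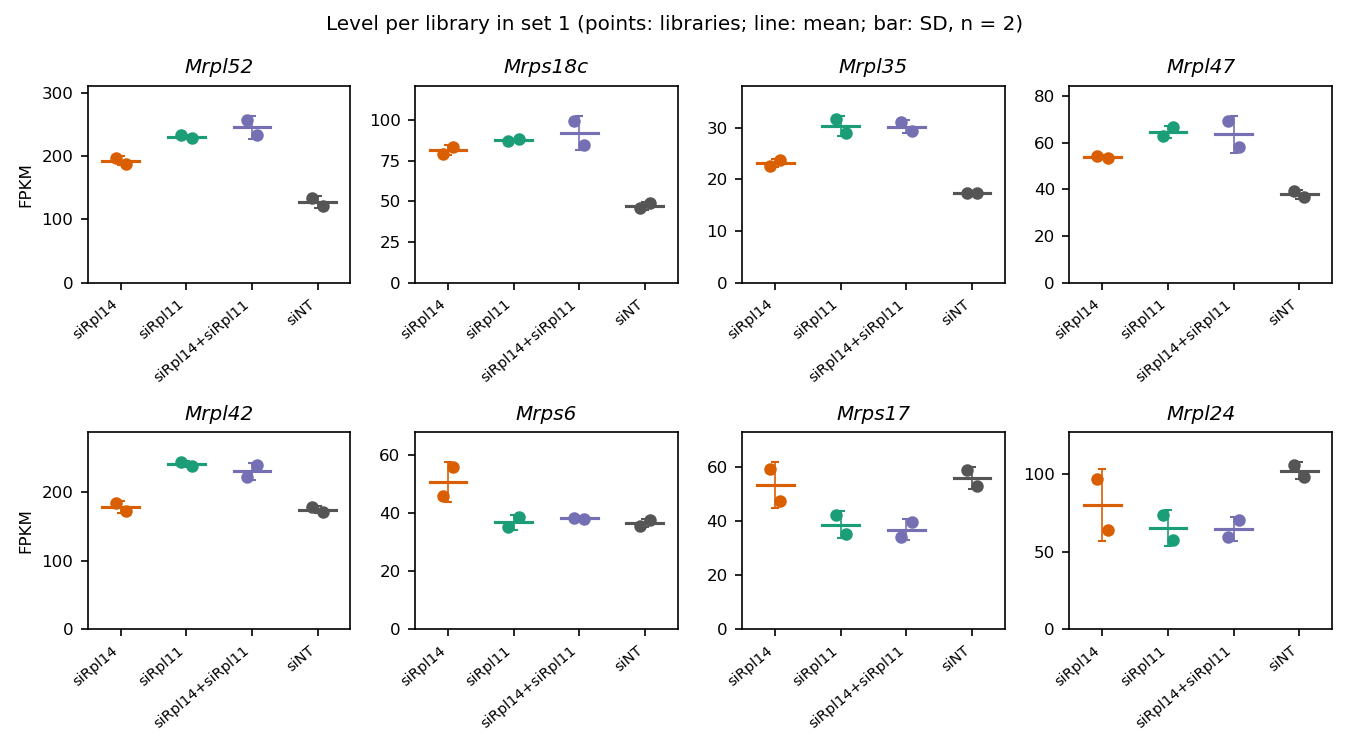
FPKM (vertical axis, from 0) of 8 genes in each library of set 1, grouped as siRpl14, siRpl11, siRpl14+siRpl11 and siNT, with points for libraries, lines for means and bars for SD (n = 2). Mrpl52, Mrps18c, Mrpl35 and Mrpl47 stand lowest with siNT, Mrpl42 stands at 171 to 185 FPKM with siRpl14 and siNT alike and higher with siRpl11, Mrps6 stands highest with siRpl14, and Mrps17 and Mrpl24 stand lowest in the groups with siRpl11.

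Few genes of the family fell, 4 with siRpl11 and 3 with both siRNAs. Mrpl24, the counterpart of a protein that starts assembly of the large subunit in bacteria, had 97.0 and 64.1 FPKM with siRpl14, 73.9 and 57.4 with siRpl11, 59.5 and 70.5 with both, and 106.3 and 98.4 with siNT. It fell by 0.64 ± 0.20 with siRpl11 (log2; limma, adjusted p = 0.0349) and by 0.65 ± 0.20 with both (limma, adjusted p = 0.0348). Both calls were lost without either siNT library, with no filter (limma, adjusted p = 0.0597 with siRpl11 and 0.0601 with both) and after median-ratio rescaling (0.094 with siRpl11 and 0.0674 with both). Its knockdown replicates lay far apart and it overlaps Rrnad1. Mrps17, the counterpart of bacterial S17, had 59.4 and 47.4 FPKM with siRpl14, 42.2 and 35.1 with siRpl11, 34.1 and 39.6 with both, and 58.8 and 53.1 with siNT. The siRpl14 libraries spanned the siNT values, while those with siRpl11 were all lower. It fell by 0.53 ± 0.15 with siRpl11 (limma, adjusted p = 0.0236) and by 0.59 ± 0.15 with both (limma, adjusted p = 0.0169), and the call with siRpl11 was lost after median-ratio rescaling (limma, adjusted p = 0.0853).

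Mrpl41, a mitochondria-specific gene and the lowest of the family, had 7.87 and 7.72 FPKM with siRpl14, 6.47 and 5.66 with siRpl11, 6.13 and 6.68 with both, and 9.24 and 9.12 with siNT. It fell by 0.53 ± 0.12 with siRpl11 (limma, adjusted p = 0.0105) and by 0.46 ± 0.12 with both (limma, adjusted p = 0.0185), and all 6 knockdown libraries were below siNT. Mrpl28 fell by 0.27 ± 0.09 with siRpl11 (limma, adjusted p = 0.0471), a call that was lost without any 1 of the 8 libraries. Without siNT replicate 1 the calls of Mrpl24, Mrps17 and Mrpl41 were lost in both comparisons. The siRpl11 calls of these 3 were also lost without siRpl11 replicate 2, and the calls with both siRNAs without siRpl14+siRpl11 replicate 1.

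Several genes of particular role did not pass the test against siNT. Mrpl12, whose product forms the flexible stalk that binds translation factors and is also known to contact mitochondrial RNA polymerase, had 122.0 and 99.0 FPKM with siRpl14, 112 and 112.2 with siRpl11, 100.8 and 111.4 with both, and 103.6 and 106.3 with siNT. Its difference was 0.07 with siRpl14 (limma, adjusted p = 0.683), 0.09 with siRpl11 (limma, adjusted p = 0.533) and 0.01 with both (limma, adjusted p = 0.933). The siNT values lay within the range of the siRpl14 libraries and of those with both siRNAs, and below both siRpl11 libraries. Mrpl10 and Mrpl11, picked after their values were seen because their bacterial counterparts form the base of that stalk, were not called either. Mrpl10 stood at 0.12 with siRpl14, -0.11 with siRpl11 and 0.05 with both, and Mrpl11 at 0.01 with siRpl14, 0.35 with siRpl11 and 0.33 with both. Mrps12, the counterpart of S12 in the decoding centre, had 59.5 and 53.9 FPKM with siRpl14, 47.8 and 45.6 with siRpl11, 38.0 and 54.9 with both, and 55.6 and 53.0 with siNT, and its differences of 0.06 with siRpl14, -0.21 with siRpl11 and -0.24 with both were not called. Mrps36, the gene whose product is not in the ribosome, had 20.3 and 20.3 FPKM with siRpl14, 25.5 and 19.9 with siRpl11, 25.7 and 20.9 with both, and 25.4 and 26.5 with siNT. Its difference was -0.34 with siRpl14 (limma, adjusted p = 0.108), -0.19 with siRpl11 (limma, adjusted p = 0.301) and -0.15 with both (limma, adjusted p = 0.417), none of them called. All were below 0, where most of the 78 lay above, but ribosomal genes such as Mrpl14, Mrpl24 and Mrps17 were below 0 in each comparison too. Mrps30, a large-subunit gene, had 49.9 and 51.2 FPKM with siRpl14, 58.4 and 66.5 with siRpl11, 63.9 and 60.9 with both, and 52.2 and 49.1 with siNT. It stood at -0.00 with siRpl14 and rose by 0.30 ± 0.10 with siRpl11 (limma, adjusted p = 0.046) and by 0.30 ± 0.10 with both (limma, adjusted p = 0.0473), calls lost without most single libraries.

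Set against each other, siRpl14 and siRpl11 differed in a number of genes that depended on the scaling. Between them, 1 gene was higher with siRpl14 and 3 lower (limma), against 12.0% and 1.45% of all genes, while median-ratio rescaling gave 0 higher and 15 lower, and leaving out 1 library gave 0 to 2 calls. The median over the family was -0.07 and that over all genes 0.12. With 1 library left out, medians ran from -0.11 to -0.01 over the family and from -0.34 to -0.18 over the cytosolic ribosomal protein genes. Mrpl42, the gene of the family with the highest mean FPKM in set 1, had 185 and 172 FPKM with siRpl14, 245 and 239 with siRpl11, 222 and 239.5 with both, and 178 and 171 with siNT. Its difference from siNT was 0.03 ± 0.09 with siRpl14 (limma, adjusted p = 0.828) and 0.47 ± 0.09 with siRpl11 (limma, adjusted p = 0.00734), and between siRpl14 and siRpl11 it was -0.44 ± 0.09 (limma, adjusted p = 0.0216). This last call was lost without either siRpl11 library or siRpl14 replicate 2. Mrps6 went the other way, with 45.8 and 55.7 FPKM with siRpl14, 35.1 and 38.7 with siRpl11, 38.2 and 38.1 with both, and 35.5 and 37.5 with siNT. It was higher with siRpl14 than with siNT by 0.46 ± 0.12 (limma, adjusted p = 0.0239) and than with siRpl11 by 0.45 ± 0.12 (limma, adjusted p = 0.045), the first of these calls being lost without siNT replicate 1, siNT replicate 2 or siRpl14 replicate 2, and it stood at 0.01 ± 0.12 with siRpl11 and 0.06 ± 0.12 with both against siNT. In bacteria S6 and S18 bind next to each other, and here the counterpart of S6 and Mrps18c differed in their pattern over the knockdowns, a comparison that was not tested. Mrps6 overlaps Slc5a3.

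Mrpl35 was lower with siRpl14 than with siRpl11, at -0.37 ± 0.10 (limma, adjusted p = 0.047), and so was Mrps5, with 73.3 and 66.2 FPKM with siRpl14 and 88.5 and 89.3 with siRpl11, at -0.35 ± 0.09 (limma, adjusted p = 0.0474). Both of these calls were lost without any 1 of the 8 libraries, and that of Mrps6 without any except siRpl14 replicate 1. Between siRpl14+siRpl11 and siRpl14, 0 genes of the family were called (limma) and 9 had an unadjusted p under 0.05, against 0.627% of all genes higher and 6.61% lower, while median-ratio rescaling gave 3 calls. The median was 0.04, against -0.09 over all genes. Rpl14 itself stood at 60.2 and 27.1% of the siNT mean with siRpl14 and at 15.6 and 35.3% with both siRNAs. Its depletion thus also differed between these libraries, here and in the interaction below, and the part of this was not tested. With 1 library left out, medians ran from 0.12 to 0.29 over the cytosolic ribosomal protein genes and from 0.01 to 0.11 over the family. The nearest to the threshold was Mrpl42 at 0.37 ± 0.09 (limma, adjusted p = 0.0535), then Mrpl35 at 0.37 ± 0.10 (0.0705) and Mrps17 at -0.52 ± 0.15 (0.0805). In the interaction, the change with both siRNAs beyond the sum of the single changes, Mrps18c alone was called, as lower, against 1.83% of all genes higher and 2.65% lower, and 23 genes had an unadjusted p under 0.05 with a family median of -0.23.

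Most of the genes that rose with siRpl14 in set 1 were also higher with it in set 2, which has single libraries and so no test. Of the 22 that rose in set 1, 19 were higher with siRpl14 than with siNT in set 2, where 50.9% of 11948 genes were. The 3 that were not are Mrpl18, Mrpl22 and Mrpl40, at -0.01, -0.05 and -0.02. The 22 were picked for a rise in set 1, while the 50.9% covers all genes without such a pick. These shares are therefore not alike, and say nothing particular to the family. Over all 78, 47 were above and 31 below 0, with a median of 0.05, against 0.01 over all genes and -0.06 over the cytosolic ribosomal protein genes. The median was thus nearer 0 than the 0.18 of set 1, a difference that was not tested. Across the 78 genes the siRpl14 differences of the 2 sets, which have separate libraries throughout, correlated at r = 0.76 and rho = 0.73, a description over genes that share libraries.

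Mrps34 had 47.6 FPKM with siRpl14, 39.7 with siRpl14+siDux, 31.9 with siDux and 25.0 with siNT in set 2. Mrps18a had 66.1 FPKM with siRpl14, 61.9 with siRpl14+siDux, 44.0 with siDux and 37.4 with siNT. Mrps18b had 88.2 FPKM with siRpl14, 84.8 with siRpl14+siDux, 58.5 with siDux and 57.3 with siNT. In all 3 the libraries that received siRpl14 were above the others. Mrpl52 had 206.8 FPKM with siRpl14, 194.5 with siRpl14+siDux, 153.5 with siDux and 142.7 with siNT. Mrpl24, which did not pass the test with siRpl14 in set 1, had 65.5 FPKM with siRpl14, 60.0 with siRpl14+siDux, 93.9 with siDux and 111.0 with siNT, a difference of -0.75 between siRpl14 and siNT. Mrpl47 had 55.3 FPKM with siRpl14, 50.8 with siRpl14+siDux, 50.8 with siDux and 53.6 with siNT, so the siRpl14 and siNT libraries were close for this riser of set 1.

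With siDux added to siRpl14 in set 2, most of the set 1 risers still stood above siNT. Of the 22 set 1 risers, 17 were above siNT with siRpl14+siDux, and over the 78 the counts were 39 above and 39 below with a median of -0.00, where 50.3% of all genes were above. The 50.3% is a measure for the 78 and not for the 22, which were picked for their rise in set 1. The summed 2C-like genes stood at 11.9 FPKM with siRpl14+siDux, against 187 with siRpl14, 3.21 with siDux and 76.2 with siNT in that set. Mrps6 had 67.0 FPKM with siRpl14+siDux, 59.9 with siRpl14, 45.0 with siDux and 42.8 with siNT. The summed trophectoderm markers stood at 160 FPKM with siRpl14+siDux, 98.25 with siRpl14, 29.7 with siDux and 30.6 with siNT in that set, and their part in these differences was not tested. Set directly against siRpl14, 18 genes were higher and 60 lower with siRpl14+siDux, with a median of -0.07, where 53.5% of all genes were higher. With siDux alone 45 were above and 33 below siNT, with a median of 0.01 and 55.3% of all genes above.

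**Figure D4:**
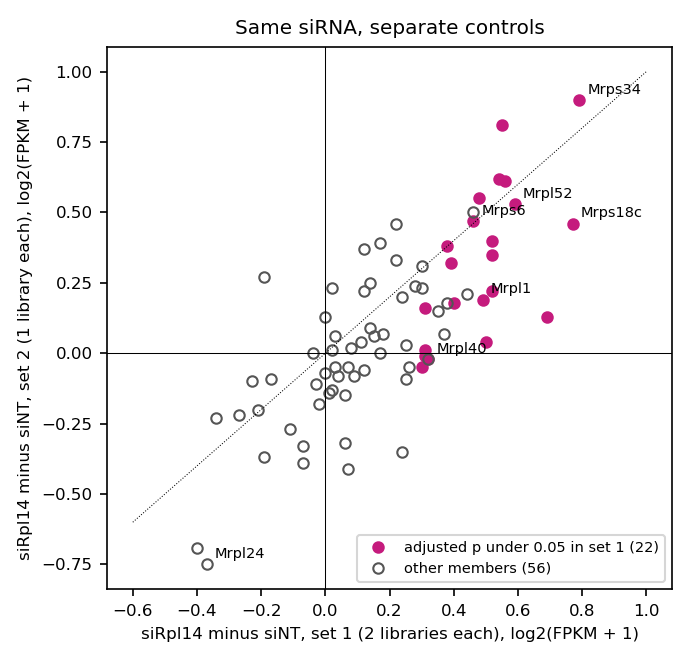
Difference of siRpl14 minus siNT in log2(FPKM + 1) for each of the 78 genes in set 1 (horizontal axis, 2 libraries a group) and set 2 (vertical axis, 1 library a group), with the 22 genes called in set 1 filled and the 56 others open. The points follow a rising band (r = 0.76), and 19 of the 22 filled points lie above 0 on the vertical axis.

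In set 3 no gene of the family was called in any of 5 contrasts (limma). With siRpl14 0 were called and 8 had an unadjusted p under 0.05, with 0.66% of 13189 genes called and a family median of -0.03. With siRpl14+siDux 0 were called and 5 had an unadjusted p under 0.05, with 1.02% of all genes called and a median of -0.16, and without siRpl14+siDux replicate 1 there were 2 calls, both lower. With siDux 0 were called and 1 had an unadjusted p under 0.05, with 0.00758% of all genes called and a median of 0.20. Between siRpl14+siDux and siRpl14 the counts were 0 and 9, with 0.0152% of all genes called and a median of 0.00, and in the interaction 0 and 6, with 0.0152% called. With 1 library left out, the median of all genes in set 3 ran from -0.1 to 0.0 with siRpl14. It ran from -0.14 to -0.01 with siRpl14+siDux and from -0.06 to 0.03 with siDux. Of the 22 set 1 risers, 15 lay above 0 with siRpl14 in set 3. The 22 were picked for a rise in set 1, and no share of genes picked alike stands beside this count. The siRpl14 differences of sets 1 and 3 correlated at r = 0.29 and rho = 0.32 across the 78 genes.

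Replicates of set 3 were far less alike than those of set 1. The median gap between replicates over the 78 genes was 0.47 to 0.77 on the log2 scale in set 3, against 0.10 to 0.13 in set 1. Between 1 and 11 of the 78 were listed at 0 in each set 3 library, and 0 in any library of sets 1 and 2. Mrpl53 and Mrps24 were listed at 0 in 6 of 10 libraries, although Mrpl53 had 24.8 to 30.3 FPKM and Mrps24 32.0 to 54.8 FPKM in set 1. Mrpl52 had 75.9 FPKM and a listed 0 with siRpl14, 149.7 and 22.1 with siRpl14+siDux, listed zeros with siDux, and 26.6 and a listed 0 with siNT. Its replicates were the furthest apart of the family in siRpl14 and siNT, so set 3 gives no reading of this gene. Mrps25 had 293 to 481 FPKM in set 3 and 9.06 to 10.3 FPKM in set 1, and Mrpl48 averaged 83.9 FPKM in set 3 and 7.76 in set 1. Levels of the 78 correlated at r = 0.27 and rho = 0.49 between sets 1 and 3, which are in separate tables that may have been normalized apart.

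Set 3 also holds 2 single libraries that received siRpl11. With siRpl11 alone, 47 of the 78 were above and 31 below siNT with a median of 0.20, where 38.9% of 13497 genes were above and the median of all was -0.14. Of the 35 that rose with siRpl11 in set 1, 26 were above 0 in that library, and the differences correlated at r = 0.38 and rho = 0.43 across genes. With siRpl14+siRpl11, 39 were above and 38 below, with a median of 0.07, where 39.1% of all genes were above and the median of all was -0.13. Of the 28 set 1 risers, 22 were above 0. With 1 library there is no test, and the shares of all genes are not over genes picked for a rise in set 1.

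**Figure D5:**
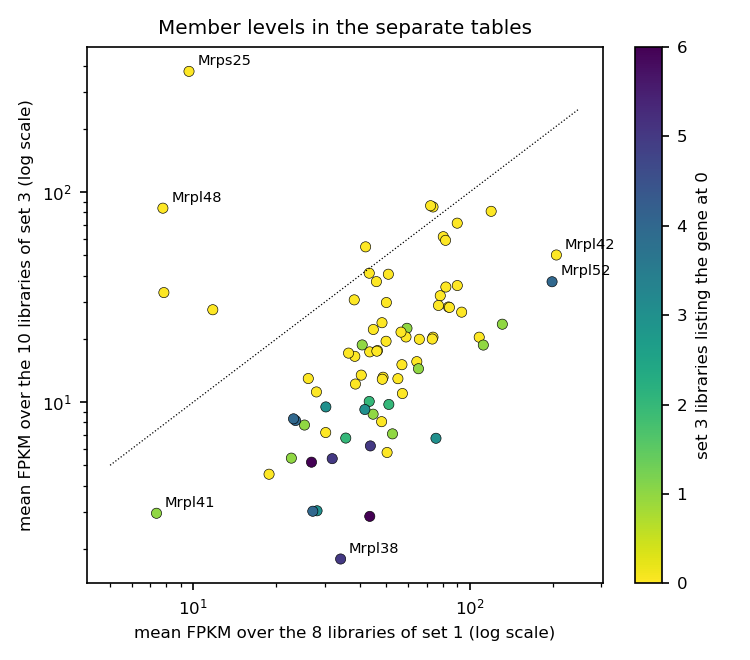
Mean FPKM of each of the 78 genes over the 8 libraries of set 1 (horizontal axis, log scale) and the 10 libraries of set 3 (vertical axis, log scale), coloured by the number of set 3 libraries in which the gene is listed at 0. The points scatter widely (r = 0.27), from a set 3 mean of 1.79 FPKM for Mrpl38 to 376 FPKM for Mrps25.

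Genes that work with the mitochondrial ribosome were taken from lists and looked at in set 1. Of 26 assembly factors in the table, 6 rose and 1 fell with siRpl14, 9 rose and 6 fell with siRpl11, and 9 rose and 6 fell with both (limma). Of all genes 18.1% rose and 13.4% fell with siRpl14, 16.0% and 28.4% with siRpl11, and 16.6% and 25.0% with both. The rising share of the list was 23.1% with siRpl14 and 34.6% in each of the other comparisons. Leaving out siNT replicate 1 brought these to 2 and 0 with siRpl14, 4 and 2 with siRpl11, and 3 and 0 with both. Ybey, an endonuclease needed for maturation of the small subunit, rose by 1.08 with siRpl14 (limma, adjusted p = 0.0038), 1.01 with siRpl11 (limma, adjusted p = 0.00359) and 1.11 with both (limma, adjusted p = 0.00331). Mrm2, a methyltransferase of the large ribosomal RNA, rose by 0.75 with siRpl14, 0.72 with siRpl11 and 0.87 with both. All 6 of these calls held without any 1 library. Mpv17l2, a protein that binds the large subunit, fell by 0.80 with siRpl11 (limma, adjusted p = 0.00528). Of 16 translation factors, 1 rose with siRpl14, 2 with siRpl11 and 1 with both, and 0 fell.

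Mitochondrial ribosomal proteins that carry other symbols were split. Of the 5 in the table, 1 rose and 1 fell with siRpl14, 3 rose and 0 fell with siRpl11, and 3 rose and 1 fell with both (limma). The shares of all genes were 18.1% and 13.4% with siRpl14, 16.0% and 28.4% with siRpl11, and 16.6% and 25.0% with both. Gadd45gip1, a large-subunit protein, rose by 0.66 with siRpl11 (limma, adjusted p = 0.00288) and 0.59 with both (limma, adjusted p = 0.00411), and stood at 0.22 with siRpl14 (limma, adjusted p = 0.0969). Dap3, a GTP-binding small-subunit protein, fell by 0.57 ± 0.16 with siRpl14 (limma, adjusted p = 0.0285) and by 0.49 with both (limma, adjusted p = 0.036), against the direction of most of the 78, and both calls were lost without either siNT library, the first also without siRpl14 replicate 2 and the second without siRpl14+siRpl11 replicate 1. The mitochondrial DNA genes themselves, including the ribosomal RNAs, have 0 of 15 symbols in the tables, so the RNA part of the ribosome was not analysed here.

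Of 11 nuclear regulators of mitochondrial genes tested, 2 rose and 1 fell with siRpl14 and 5 rose and 2 fell with each of siRpl11 and both (limma), where the rising share was 18.2% with siRpl14, against 18.1% of all genes, and 45.5% in each of the others, against 16.0% with siRpl11 and 16.6% with both. Without siNT replicate 1 these counts were 1 and 0 with siRpl14, 2 and 1 with siRpl11, and 2 and 0 with both. Mycn, a Myc family transcription factor gene active in these cells, rose by 1.31 ± 0.16 with siRpl14 (limma, adjusted p = 0.00216), 1.72 ± 0.16 with siRpl11 (limma, adjusted p = 0.00198) and 1.66 ± 0.16 with both (limma, adjusted p = 0.00218), and these calls held without any 1 library. Nrf1, whose product binds the first of the motifs shown above, rose by 0.45 ± 0.12 with siRpl14 (limma, adjusted p = 0.0246), 0.68 ± 0.12 with siRpl11 (limma, adjusted p = 0.0049) and 0.72 ± 0.12 with both (limma, adjusted p = 0.00484), of which the call with siRpl14 needed both siNT libraries and siRpl14 replicate 2. Yy1 was at 0.37 with siRpl14 (limma, adjusted p = 0.0627), 0.48 with siRpl11 (limma, adjusted p = 0.02) and 0.38 with both (limma, adjusted p = 0.0496), and its calls were lost without siNT replicate 1, that with siRpl11 also without siRpl11 replicate 2 and that with both without any of 5 other libraries. Gabpa, which encodes the DNA-binding ETS subunit of GABP, was at -0.21 with siRpl14, -0.11 with siRpl11 and -0.14 with both, with no call. Gabpb2, a gene of the partner subunit, was at 0.31 with siRpl14 (limma, adjusted p = 0.191) and rose by 0.65 with siRpl11 (limma, adjusted p = 0.0191) and by 0.61 with both (limma, adjusted p = 0.025), each call being lost without siNT replicate 1 and without 1 library of its own group (siRpl11 replicate 2 or siRpl14+siRpl11 replicate 1). Gabpb1, the other gene of that subunit, was at 0.33 with siRpl14 (limma, adjusted p = 0.0527) and rose by 0.34 with siRpl11 (limma, adjusted p = 0.0381) and by 0.39 with both (limma, adjusted p = 0.024), calls lost without any 1 of the 4 libraries compared. Ppargc1b, a coactivator gene, fell by 0.83 with siRpl14, 0.76 with siRpl11 and 0.81 with both (limma), and each call was lost without 1 library of its own knockdown group (siRpl14 replicate 2, siRpl11 replicate 2 or siRpl14+siRpl11 replicate 1). Esrra, a nuclear receptor gene of the same program, was at -0.03 with siRpl14 (limma, adjusted p = 0.856) and fell by 0.76 with siRpl11 (limma, adjusted p = 0.00408) and by 0.62 with both (limma, adjusted p = 0.00814), the last of these lost without siNT replicate 1 or siRpl14+siRpl11 replicate 1. Of 10 genes of mitochondrial transcription and DNA upkeep, 2 rose and 0 fell with siRpl14, against 18.1% and 13.4% of all genes, and 3 rose and 2 fell with each of siRpl11 and both, against 16.0% and 28.4% with siRpl11 and 16.6% and 25.0% with both. Tfam, the packaging factor of mitochondrial DNA, was at 0.23 with siRpl14 (limma, adjusted p = 0.101), 0.46 with siRpl11 (limma, adjusted p = 0.00836) and 0.43 with both (limma, adjusted p = 0.0117), where the call with siRpl11 was lost without siRpl11 replicate 2 and that with both without either siNT library or siRpl14+siRpl11 replicate 1. No link between any of these genes and the 78 was tested.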

How the data were processed

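The deposited values are FPKM in 2 tables with 1 column per library, which the authors made with STAR and Cuffnorm on mm9, per the submitters' processing notes. The sources used here do not name the versions, the annotation, the strand setting or the way libraries were normalized. Depth is unknown, and nothing was treated as counts. Tests were made within a table, since the tables may have been normalized separately.

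From the FPKM, log2(FPKM + 1) went into limma 3.58.1 (R 4.3.3), using a trend and robust moderation (statmod 1.5.0), 1 fit for the 8 libraries of set 1 and 1 for the replicated groups of set 3, which leaves out that set's single siRpl11 and siRpl14+siRpl11 libraries. A gene entered a fit when 2 or more of its libraries reached 1 FPKM. Benjamini-Hochberg adjustment ran over all genes tested, with a threshold of 0.05. Fold changes on this scale understate the change of low genes. Set 2 was not tested. Values are FPKM per library, and errors are SE of log2 fold changes, with 2 libraries a group. Differences that missed the threshold are given as values.

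The family, the gene lists and the tests were chosen with earlier results of these data known. Named genes are those with the highest and lowest levels, the strongest calls of each comparison, up to 8 in each direction, genes of particular role and, from the other lists, up to 4 calls in each direction. Of the list entries, 29 are not in the tables. Alternatives were a pseudocount of 0.1 or 5, no filter, a filter of 5 FPKM, quantile normalization, median-ratio rescaling, plain empirical Bayes, a replicate block, sets 1 and 2 fitted together, and leaving out each library. A block with crossed numbers was added after seeing the data. Tables and figures were made with Python 3.11.15, pandas 2.3.3, numpy 2.4.6 and matplotlib 3.10.9. The scripts were tested on simulated data. Sequences are RefSeq's for GRCm38.p6, and genome neighbours are from GENCODE vM21.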

Additional observations from a re-analysis of the deposited data

Results flagged for a closer look

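Mrps18c was the only gene of the family called in the test of whether the change with both siRNAs differed from the sum of the changes with each. The interaction was -0.71 ± 0.15 (SE, log2; limma, adjusted p = 0.0442), since the change with siRpl14+siRpl11 was 0.94, against 0.77 with siRpl14 alone and 0.87 with siRpl11 alone, all against siNT with 2 libraries a group. The call was lost without any of 7 of the 8 libraries, siRpl14 replicate 1 being the exception, and its adjusted p then ran up to 0.154. It also missed the threshold with no filter (adjusted p = 0.0639, limma), a filter of 5 FPKM (0.0512), quantile normalization (0.0521), plain empirical Bayes (0.0564) and a replicate block (0.0774). Mrps34 at -0.79 ± 0.21 (limma, adjusted p = 0.0651) and Mrpl20 at -0.73 ± 0.18 (limma, adjusted p = 0.0599) had larger estimates but were not called.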

How the results depend on the processing

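Counts of called genes in the family rest on 2 libraries a group. Leaving out 1 library gave 2 to 19 calls with siRpl14 against siNT (22 with all), 9 to 39 with siRpl11 (39), 5 to 33 with both siRNAs (31), 0 to 2 between siRpl14 and siRpl11 (4), 0 to 1 in the interaction (1), and 0 to 2 in set 3 between siRpl14+siDux and siNT (0). No label ties same-numbered libraries to a shared culture or day. In set 1 their deviations from the group means correlated at 0.178 to 0.502 among siRpl14, siRpl11 and siNT and at -0.501 to -0.237 between these and siRpl14+siRpl11, and in set 3 at 0.00609 to 0.039. A fit with a replicate block gave 14 with siRpl14, 1 between siRpl14 and siRpl11 and 0 in the interaction, and changed no other count by over 1.5 times. A block with the siRpl14+siRpl11 numbers crossed, chosen after seeing the data because of these correlations, gave 37 calls with siRpl14, 46 with siRpl11, 46 with both, 10 between siRpl14+siRpl11 and siRpl14, 15 between siRpl14 and siRpl11 and 26 in the interaction. Between siRpl14+siRpl11 and siRpl14 (0) there was 1 call under quantile normalization and 3 after median-ratio rescaling. Between siRpl14 and siRpl11 there were 1 with no filter, 2 with a filter of 5 FPKM, 2 under quantile normalization, 15 after median-ratio rescaling and 1 with plain empirical Bayes. The interaction had 0 under all of these except median-ratio rescaling. Rescaling moved the median of all genes with siRpl11 from -0.11 to 0.01 (quantile) and 0.03 (median ratio), and the family to 29 higher and 5 lower, median 0.21, and 48 higher and 1 lower, median 0.41. For siRpl14 it gave 16 and 1, median 0.09, and 18 and 0, median 0.16, and for both siRNAs 29 and 4, median 0.20, and 43 and 2, median 0.35. The cause was not tested. With a pseudocount of 0.1 or 5 the counts of higher and lower genes against siNT were as reported. Sets 1 and 2 together gave 25 higher and 2 lower with siRpl14, with 18 of the 22 kept. Uncalled differences near 0 changed sign. Mrps12 was at -0.06 (quantile), -0.01 to 0.13 (leaving out 1 library) and -0.07 (sets 1 and 2 together) with siRpl14 and at -0.51 to 0.02 (leaving out 1 library) with both. Mrpl12 was at -0.08 to 0.22 (leaving out 1 library) and -0.09 (sets 1 and 2 together) with siRpl14, and at -0.00 (quantile), -0.00 (without siNT replicate 1) and -0.06 (without siRpl14+siRpl11 replicate 2) with both. Mrps30 with siRpl14 was at -0.05 to 0.04 (leaving out 1 library), and at 0.04 (sets 1 and 2 together).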
